A study of Mus musculus with 2208 samples.

Results

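The Toll-like receptor genes Tlr1, Tlr2, Tlr3, Tlr4, Tlr5, Tlr6, Tlr7, Tlr8, Tlr9 and Tlr13 were followed in single microglia of a mouse model of neurodegeneration. They were taken by symbol and make up 10 of the 23951 genes in the deposited expression table, 5 coding for receptors of the cell surface (Tlr1, Tlr2, Tlr4, Tlr5, Tlr6) and 5 for receptors of endosomes (Tlr3, Tlr7, Tlr8, Tlr9, Tlr13). The study sorted hippocampal cells carrying CD11b and CD45 into plates and prepared 1 RNA library per well with the Smart-seq2 protocol. The labels gave 2208 wells from 25 mice. The CKp25 mice, which make the Cdk5 activator p25 once it is induced, were taken at 0, 1, 2 and 6 weeks of induction, with 3, 3, 3 and 4 mice. The CK mice, control littermates without p25, were taken at the same times with 3 mice each. Ages at 0 weeks were 3 months, then 3 months and 1 week, 3 months and 2 weeks, and 4 months and 2 weeks, equal in both genotypes, so that within a genotype weeks of induction and age cannot be told apart. In this model p25 is driven from the CamKII promoter in forebrain neurons, as background, and the sorted cells are not those that carry the active transgene.

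Toll-like receptors are membrane proteins of innate immunity that recognise molecules of microbes and of damaged cells. Surface receptors bind lipids and proteins outside the cell, while endosomal receptors bind nucleic acids taken up into the cell. Most signal through the adaptor Myd88 and, for Tlr3 and in part Tlr4, through Ticam1, to NF-kappaB and interferon regulatory factors, and in the brain microglia are the main cells that carry them.

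Upstream sequences of 5 genes are shown because 3 of these genes changed in the comparisons described further on (Tlr2, Tlr1, Tlr5) and the other two hold motifs of the pathway's own transcription factors (Tlr6, Tlr3). Each is the 250 bases before the annotated start in the RefSeq promoter table of GRCm38.p6, on the strand of the gene, with motif matches in capitals. Tlr2 lies at chr3:83841609-83841858, Tlr1 at chr5:64933559-64933808, Tlr5 at chr1:182954538-182954787, Tlr6 at chr5:64959167-64959416 and Tlr3 at chr8:45410381-45410630, with only Tlr5 on the plus strand. The table matched 8 of the 10 receptors by symbol. For Tlr1 and Tlr6 the first of 2 entries is shown, and the second held no match of the 3 motifs searched.
Tlr2: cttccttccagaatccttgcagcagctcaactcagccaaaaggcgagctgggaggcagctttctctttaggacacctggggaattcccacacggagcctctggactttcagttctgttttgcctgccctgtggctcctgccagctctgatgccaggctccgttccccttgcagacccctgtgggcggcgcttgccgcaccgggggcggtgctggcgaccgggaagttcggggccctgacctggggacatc
Tlr1: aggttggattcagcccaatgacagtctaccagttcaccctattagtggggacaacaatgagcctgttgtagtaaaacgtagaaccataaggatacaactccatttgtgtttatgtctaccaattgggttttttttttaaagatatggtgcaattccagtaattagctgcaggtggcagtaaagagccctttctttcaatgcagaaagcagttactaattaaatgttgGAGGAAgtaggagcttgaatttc
Tlr5: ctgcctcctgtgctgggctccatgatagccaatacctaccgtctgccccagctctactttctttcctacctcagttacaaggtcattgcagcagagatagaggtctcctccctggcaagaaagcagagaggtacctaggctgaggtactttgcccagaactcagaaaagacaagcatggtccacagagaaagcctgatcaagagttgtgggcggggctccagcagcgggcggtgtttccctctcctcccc
Tlr6: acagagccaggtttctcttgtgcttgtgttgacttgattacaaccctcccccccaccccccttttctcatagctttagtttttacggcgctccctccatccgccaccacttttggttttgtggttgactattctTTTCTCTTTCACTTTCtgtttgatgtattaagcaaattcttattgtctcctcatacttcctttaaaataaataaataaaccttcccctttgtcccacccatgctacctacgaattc
Tlr3: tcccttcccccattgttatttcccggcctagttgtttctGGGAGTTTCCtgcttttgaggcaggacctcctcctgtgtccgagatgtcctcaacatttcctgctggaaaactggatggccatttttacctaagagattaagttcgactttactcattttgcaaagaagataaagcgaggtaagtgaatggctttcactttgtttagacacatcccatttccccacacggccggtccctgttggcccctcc

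The motifs searched, on both strands and in windows that also took the 50 bases after the start, were NF-kappaB (GGGA and TTCC with any 2 bases between them), the interferon-stimulated response element (GAAA and GAAA with any 2 bases between them) and PU.1, a factor that myeloid cells need (GAGGAA). Of 32851 promoters of the same length in that table, 1.47% held the NF-kappaB letters, 3.44% the interferon element and 28.3% the PU.1 letters. The capitals in Tlr3 mark an NF-kappaB match from -211 to -202, and those in Tlr1 a PU.1 match from -23 to -18, counted from the start. In Tlr6 they mark 2 overlapping interferon elements on the opposite strand, together from -116 to -101. The windows of Tlr2 and Tlr5 held none of the 3 sets of letters. Only these letters were searched, and looser forms of the motifs were not. Tlr8 and Tlr13 had 1 PU.1 match each and Tlr9 had 2, none of them overlapping another motif. These matches are descriptions of letters, not sites of binding.

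FPKM, fragments per transcript length and per mapped fragments of a library, were taken from the table as deposited, and a gene is called listed in a well at FPKM of 1 or more. Wells with at least 1000 listed genes were kept, 2028 of 2208, or 41 to 96 per mouse. Their median held 1537.5 to 2994 listed genes, depending on the mouse. At 2 weeks 258 of 288 CKp25 and 284 of 288 CK wells were kept, with 68 of 96 in CKp25 mouse 3. At 6 weeks 231 of 288 CKp25 and 182 of 192 CK wells were kept, so the filter left out more CKp25 wells at both times. The table keeps no read counts, so the depth behind a value is unknown, and Gapdh was at 0 in 19.4% of kept wells, so a 0 is read only as listed at 0. The microglial markers P2ry12, Tmem119, Cx3cr1 and Csf1r were each listed in 90.4% to 100% of the wells of every mouse, Fcrls in 88.9% to 100%, Siglech in 90.1% to 100%, Aif1 in 59.1% to 88.5% and Sall1 in 59.1% to 93.8%. At 2 weeks Sall1 was listed in 75.7% ± 7.29 of CKp25 wells and 90.4% ± 4.90 of CK wells (SD, n = 3 mice). The summed FPKM of 8 microglial markers was nonetheless lower in CKp25 mice, at 5677 to 9518 against 11342 to 17021 in CK mice at 1 week, 4005 to 4533 against 7278 to 13153 at 2 weeks and 2141 to 4968 against 6488 to 7347 at 6 weeks, and its part in the results was not tested. Cdk5r1, the gene from which p25 is cut, was listed in 14.1% ± 5.92 of CKp25 wells and 36.5% ± 5.28 of CK wells at 2 weeks (SD, n = 3 mice), a reading in microglia that says nothing of p25 in neurons. Of 23 wells titled A1, 17 held over 8000 listed genes, against a median of 2293 in the other wells, and no source used here says whether they hold single cells. At 2 weeks the summed FPKM of 7 monocyte markers was 25.9 to 31.8 in CKp25 mice and 0.308 to 21.0 in CK mice, with F13a1 at 0 in the CKp25 mice. Of these markers Plac8 was higher in CKp25 mice by 0.92 in mean log2(FPKM + 1) (limma, adjusted p = 3.05e-08). Ccr2 differed by 0.09 and did not pass (limma, adjusted p = 0.697). The sum of 4 B cell markers was 1.29 to 8.45 in CKp25 mice and 13 to 22.8 in CK mice, with Ms4a1 and Pax5 at 0 in the CKp25 mice. At 6 weeks 5 astrocyte markers summed to 4.55 to 28.4 in CKp25 mice and 0.471 to 3.43 in CK mice, and 5 endothelial markers to 2.25 to 5.28 and 5.40 to 6.70. Sums of 5 border-associated macrophage markers, 29.4 to 162 and 1.92 to 69.0, overlapped, with medians of 97.1 and 7.97. Those of the monocyte markers, 6.77 to 55.5 and 0.781 to 27.4, and of the B cell markers, 2.56 to 20.5 and 13.5 to 28.5, overlapped too. The part these markers of other cell types have in the results was not tested beyond the fits without wells that hold them.

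The receptors differed widely in how often they were listed. Over all kept wells Tlr13 was listed most often, in 59.5% of wells, followed by Tlr7 in 53.7%, Tlr2 in 50.9%, Tlr9 in 42.4% and Tlr4 in 37.5%. Tlr3 was listed in 26.5%, Tlr1 in 23.8%, Tlr6 in 20.2%, Tlr5 in 11.2% and Tlr8 in 0.789%, which is 16 wells. Before induction the order by mean FPKM in CKp25 mice ran from Tlr13 (42.5 ± 7.0) over Tlr4 (40.3 ± 20.7), Tlr2 (36.6 ± 10.5), Tlr7 (29.9 ± 14.0) and Tlr9 (21.4 ± 5.65) to Tlr3, Tlr6, Tlr1, Tlr5 and Tlr8 (SD, n = 3 mice). In CK mice it ran from Tlr13 (46.0 ± 12.6) over Tlr2 (38.8 ± 7.04), Tlr9 (33.9 ± 6.68), Tlr7 (27.4 ± 5.60) and Tlr4 (26.7 ± 6.47) to Tlr6, Tlr3, Tlr1, Tlr5 and Tlr8. In both orders neighbours among the first 5 overlapped in their ranges over mice, so their places relative to the next are not resolved. Tlr8 lay below Tlr5 with no overlap in either. From 1 week on Tlr2 had the highest mean in CKp25 mice, at 89.1 ± 3.89, 158 ± 49.2 and 99.3 ± 52.3 FPKM at 1, 2 and 6 weeks, and its range did not overlap that of Tlr13, the second in each. In CK mice Tlr13 had the highest mean at every week, with a range over mice that overlapped that of the second receptor each time.

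**Figure D1:**
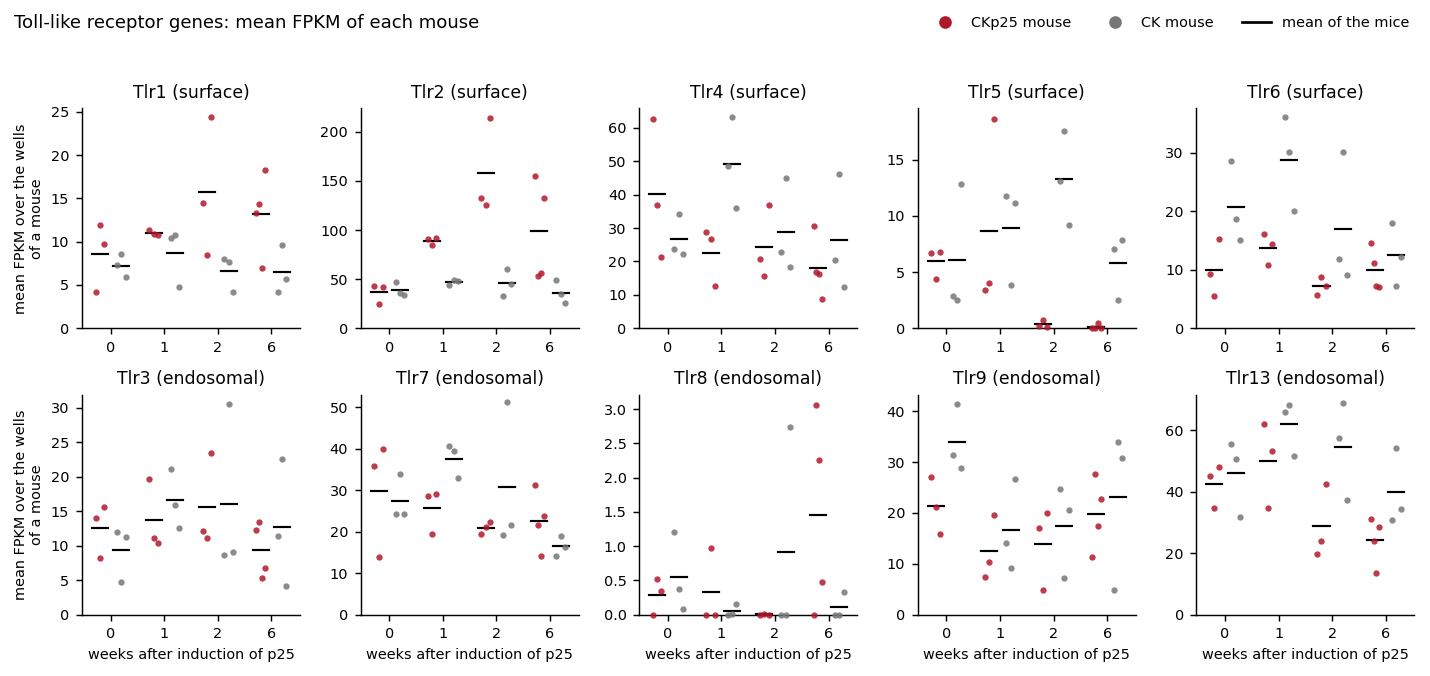
Mean FPKM over the kept wells of each mouse (y axis, from 0) at 0, 1, 2 and 6 weeks (x axis) for the 10 Toll-like receptor genes, with CKp25 mice in red left of CK mice in grey and the group mean as a bar. Tlr2 in CKp25 mice lies at 126 to 214 FPKM at 2 weeks, above the 32.6 to 60.3 of CK mice, while Tlr5 lies at 0.0903 to 0.745 against 9.19 to 17.5.

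A receptor was tested when it was listed in at least 10% of the wells of at least 3 mice, which left 9 receptors among 9435 genes and left out Tlr8. Tlr5 passed in 14 of the 25 mice, of both genotypes, Tlr1 and Tlr6 in 24 and the other six in 25. Each difference given is the CKp25 mean minus the CK mean of log2(FPKM + 1), averaged over wells and then mice, a scale that understates the change of a low gene, ± the standard error of a limma fit to all 25 mice, and adjusted p-values are Benjamini-Hochberg values over the 9435 genes. At 0 weeks limma called 0 of the 9 receptors and 0 of 9435 genes (0% called), and at an unadjusted p under 0.05 it found 0 receptors and 101 genes. At 1 week 0 receptors were called, where 3.9% of genes were higher and 0.392% lower, and Tlr1 and Tlr2 were the 2 with an unadjusted p under 0.05, as were 1662 of all 9435 genes. At 2 weeks 2 receptors, Tlr2 and Tlr1, were higher, where 6.14% of genes were, and 1 receptor, Tlr5, was lower, where 2.24% were. At 6 weeks Tlr2 was higher, where 4.21% of genes were, and Tlr5 was lower, where 1.54% were. All of these were surface receptors, and 0 of the 4 endosomal receptors tested were called at any week, with 1 of them, Tlr13, at an unadjusted p under 0.05 at 2 and at 6 weeks, as were 1912 and 1487 of the 9435 genes. On the log2 scale the mice of both genotypes did not overlap for Tlr9 at 0 weeks, for Tlr1, Tlr2 and Tlr6 at 1 week, for Tlr1, Tlr2, Tlr5 and Tlr13 at 2 weeks and for Tlr2 and Tlr5 at 6 weeks, where 7.51%, 20.7%, 24.1% and 12.9% of genes were separated in either direction. With 8.37% and 5.74% of genes called in either direction at 2 and 6 weeks, 0 of 4 says little about the endosomal class. The median difference at 2 weeks was -0.0086 for the 5 surface and -0.0546 for the 4 endosomal receptors. At 6 weeks these medians were -0.132 and -0.0363. Over all genes they were -0.0011 and -0.0402. Whether the surface group as a whole differed from the endosomal group was not tested.

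**Figure D2:**
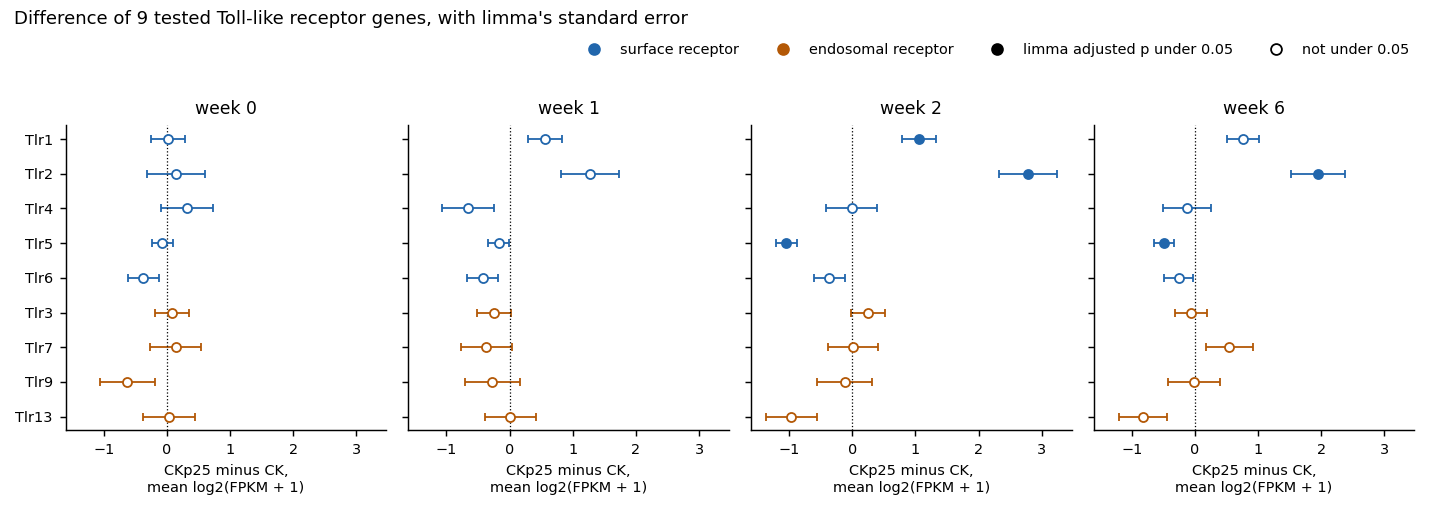
Difference between CKp25 and CK mice in the mean of log2(FPKM + 1) (x axis) with limma's standard error as bars, for 9 receptors (y axis) at 0, 1, 2 and 6 weeks (panels), surface receptors in blue and endosomal ones in orange. Filled points passed the threshold and are Tlr1, Tlr2 and Tlr5 at 2 weeks and Tlr2 and Tlr5 at 6 weeks.

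Tlr2, which recognises bacterial lipoproteins as a pair with Tlr1 or Tlr6, had the largest difference of the receptors and rose at 2 and 6 weeks. At 0 weeks its mean FPKM was 43.3, 24.5 and 41.9 in the 3 CKp25 mice and 46.9, 35.6 and 33.9 in the 3 CK mice, which overlap. At 1 week it was 90.7, 84.6 and 91.8 in CKp25 mice and 44.0, 49.0 and 48.0 in CK mice, so that every CKp25 mouse was higher. At 2 weeks the CKp25 mice had 133, 126 and 214 FPKM and the CK mice 32.6, 60.3 and 45.2, again without overlap. At 6 weeks the CKp25 mice had 155, 53.5, 55.8 and 133 FPKM and the CK mice 48.7, 34.5 and 25.9. CKp25 mice 2 and 3 were then just above the highest CK mouse and the other two were far above it. On the log2 scale the difference was 0.14 ± 0.46 at 0 weeks and 1.27 ± 0.46 at 1 week, which did not pass (limma, adjusted p = 1 and 0.111). It was 2.79 ± 0.46 at 2 weeks (limma, adjusted p = 2.54e-05) and 1.95 ± 0.43 at 6 weeks (adjusted p = 0.00194). The ratio of mean FPKM was 3.43 at 2 weeks and 2.73 at 6 weeks. At 1 week the difference passed when CK mouse 2 was left out (adjusted p = 0.0441), and at 6 weeks it did not pass when all 2208 wells entered, at 1.35 and adjusted p = 0.115.

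More wells listed Tlr2 in CKp25 mice, and the wells that listed it also read higher. It was listed in 78.7%, 85.4% and 83.8% of the wells of the CKp25 mice at 2 weeks and in 40.6%, 58.3% and 50% of those of the CK mice. The median FPKM of the listing wells was 116 ± 19.7 in CKp25 mice and 45.8 ± 18.5 in CK mice (SD, n = 3), with ranges of 103 to 138 and 29.8 to 66.1. At 6 weeks the shares were 68.2% ± 8.62 and 40.5% ± 11.9, which do not overlap, and the medians 94.3 ± 39.5 and 65.4 ± 20.7, which do (n = 4 CKp25 and 3 CK mice). Both measures separated the genotypes at 2 weeks, and the share alone did at 6 weeks. How many of all genes separate on these measures was not computed.

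Within the CKp25 mice Tlr2 changed with time. Against CKp25 mice at 0 weeks the CKp25 mice were higher by 1.79 ± 0.46 at 1 week (limma, adjusted p = 0.00883), 3.46 ± 0.46 at 2 weeks (adjusted p = 3.28e-07) and 2.28 ± 0.43 at 6 weeks (adjusted p = 0.000203). The first of these was lost without CKp25 mouse 1 of 0 weeks or mouse 2 of 1 week, with the log of the mean FPKM (adjusted p = 0.108) and with wells of at least 2000 genes (adjusted p = 0.0654). In these comparisons 9.68%, 12.5% and 7.02% of genes were called in either direction. In CK mice the differences from 0 weeks were 0.65, 0.81 and 0.47 with adjusted p of 0.629 or more, and limma called 0 genes there (0% called), against 986, 549 and 277 genes at an unadjusted p under 0.05. The difference between the genotypes was larger at 2 weeks than at 0 weeks by 2.65 ± 0.65 (limma interaction, adjusted p = 0.0129), a comparison in which 2.16% of genes were higher. This interaction was lost when CK mouse 1 of 2 weeks was left out and under 4 other settings. The comparisons share the CKp25 mice of 0 weeks or the mice of 2 weeks and are not independent of each other.

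Tlr1, the partner that lets Tlr2 recognise triacylated lipoproteins, rose at 2 weeks. At 0 weeks its mean FPKM was 4.22, 11.9 and 9.78 in CKp25 mice and 7.25, 8.53 and 5.92 in CK mice, which overlap. At 1 week it was 11.3, 10.9 and 10.8 in CKp25 mice and 10.4, 10.7 and 4.79 in CK mice, the lowest CKp25 mouse lying barely above the highest CK mouse. At 2 weeks it was 14.4, 8.51 and 24.4 in CKp25 mice and 7.97, 7.69 and 4.22 in CK mice, without overlap. At 6 weeks it was 13.4, 14.4, 6.95 and 18.3 in CKp25 mice and 4.16, 9.61 and 5.65 in CK mice, where CKp25 mouse 3 fell within the CK range. The log2 differences were 0.01 ± 0.27, 0.56 ± 0.27, 1.06 ± 0.27 and 0.76 ± 0.25 at 0, 1, 2 and 6 weeks (limma, adjusted p = 1, 0.261, 0.00715 and 0.066). Only the value at 2 weeks passed, and it did not without CKp25 mouse 3 of that week (0.88, adjusted p = 0.0775) or when the log was taken of the mean FPKM (1.06, adjusted p = 0.223). At 6 weeks the value passed without CKp25 mouse 3 (0.96, adjusted p = 0.0136) and in 3 other settings.

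Tlr1 separated the genotypes at 2 weeks in the share of wells and not in the level per listing well, again without a count over all genes. It was listed in 37.2%, 36.5% and 45.6% of the wells of CKp25 mice at 2 weeks and in 18.8%, 19.8% and 15.2% of those of CK mice, while the median FPKM of listing wells was 24.3 ± 5.16 and 22.6 ± 10.3 (SD, n = 3). Against CKp25 mice at 0 weeks, CKp25 mice at 2 weeks were higher by 0.98 ± 0.27 (limma, adjusted p = 0.00977), a call lost without mouse 1 of 0 weeks or mouse 3 of 2 weeks and with the log of the mean FPKM (0.79, adjusted p = 0.39). The test of whether the genotype difference was larger at 2 than at 0 weeks gave 1.05 ± 0.38 and did not pass (limma interaction, adjusted p = 0.161). Tlr1 and Tlr6 share stretches of sequence, and 13.6% of the 50-base stretches of Tlr1 transcripts also occur in Tlr6 transcripts in the GENCODE M21 set, with a longest shared run of 229 bases. No source used here says how the authors' counting split such reads, so the values of these 2 genes are uncertain to that extent.

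Tlr5, the receptor of bacterial flagellin, was lower in CKp25 than in CK mice at 2 and 6 weeks, when few CKp25 wells listed it. At 0 weeks its mean FPKM was 6.73, 4.42 and 6.83 in CKp25 mice and 2.85, 2.55 and 12.8 in CK mice. At 1 week it was 3.37, 4.06 and 18.6 in CKp25 mice and 11.8, 3.88 and 11.2 in CK mice, so that the genotypes overlapped at both times. At 2 weeks it was 0.207, 0.745 and 0.0903 in CKp25 mice and 13.1, 17.5 and 9.19 in CK mice. At 6 weeks it was 0, 0.0286, 0.480 and 0.00330 in CKp25 mice and 7.10, 2.49 and 7.89 in CK mice. No CKp25 mouse reached the lowest CK mouse at either of these times. The wells that listed Tlr5 numbered 9 of 258 in CKp25 mice and 66 of 284 in CK mice at 2 weeks, and 3 of 231 and 21 of 182 at 6 weeks. The log2 difference was -1.04 ± 0.17 at 2 weeks (limma, adjusted p = 1.38e-05) and -0.49 ± 0.16 at 6 weeks (adjusted p = 0.0499), against -0.07 ± 0.17 and -0.17 ± 0.17 at 0 and 1 weeks (adjusted p = 1 and 0.654). The value at 6 weeks stands at the edge of the threshold, was lost in 10 of 13 other settings and in 18 of 25 fits with 1 mouse left out, each mouse of 6 weeks among these, with adjusted p up to 0.197.

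The genotype difference of Tlr5 at 2 weeks was tested against that at the earlier weeks. It was lower at 2 weeks than at 0 weeks by -0.97 ± 0.23 (limma interaction, adjusted p = 0.0116), where 0.466% of genes were lower, and lower than at 1 week by -0.88 ± 0.23 (adjusted p = 0.0349), where 0.424% were. The first was lost without CK mouse 1 or 2 of 0 weeks or CK mouse 2 of 2 weeks, the second without any of 7 mice in turn. The first was also lost with no filter on genes (adjusted p = 0.0659), and the second in 6 of 13 other settings. Part of these values lies in the CK mice, whose mean FPKM was 6.07 ± 5.84, 8.95 ± 4.40, 13.3 ± 4.17 and 5.83 ± 2.92 at 0, 1, 2 and 6 weeks. Tlr5 in CK mice at 2 weeks against 0 weeks was higher by 0.61 ± 0.17 with an adjusted p of 0.764 (limma), although its unadjusted p of 0.000682 was the third smallest of all genes. Within CKp25 mice the differences from 0 weeks were -0.36 ± 0.17 at 2 weeks and -0.44 ± 0.16 at 6 weeks and did not pass (limma, adjusted p = 0.160 and 0.0874).

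**Figure D3:**
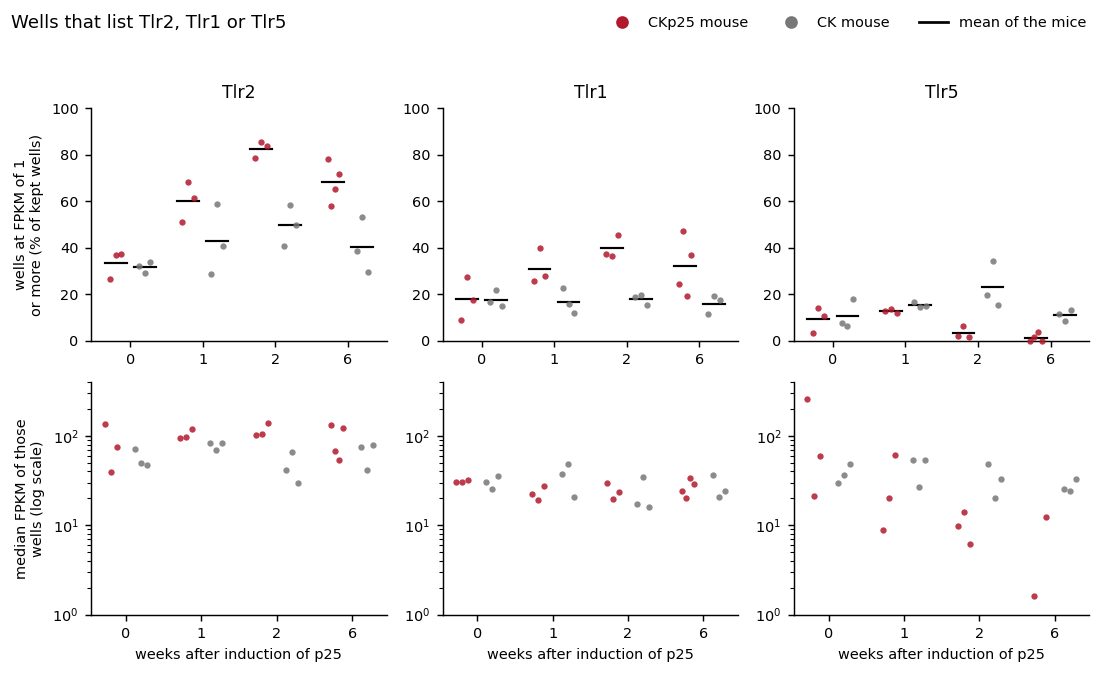
Share of kept wells that list Tlr2, Tlr1 or Tlr5 (upper row, y axis in percent from 0 to 100) and median FPKM of those wells (lower row, log axis) for each mouse at 0, 1, 2 and 6 weeks (x axis), CKp25 in red left of CK in grey, bars for group means in the upper row. At 2 weeks CKp25 mice list Tlr2 in 78.7% to 85.4% of wells and Tlr5 in 1.47% to 6.25%, and 2 CKp25 mice at 6 weeks have no well that lists Tlr5.

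The results at 2 weeks were read again without wells that carried markers of another cell type. A total of 58 kept wells held 3 or more markers of a type other than microglia, 9 in CKp25 and 7 in CK mice at 2 weeks, and 3 and 1 of these had monocyte markers. Without them the differences were 2.77 for Tlr2, 1.08 for Tlr1 and -1.02 for Tlr5 (limma, adjusted p = 4.34e-05, 0.00615 and 4.21e-05). They were as large without the A1 wells, at 2.78, 1.05 and -1.04, and without wells of over 8000 genes, at 2.78, 1.06 and -1.04. The part that monocyte markers spread over other wells, or the lower B cell markers, have in these results was not tested.

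Tlr4 and Tlr6 did not pass at any week. Tlr4, the receptor of lipopolysaccharide, had 62.5, 37.0 and 21.4 FPKM in CKp25 mice and 23.6, 34.1 and 22.3 in CK mice at 0 weeks. At 1 week it had 28.9, 26.6 and 12.5 in CKp25 mice and 48.6, 63.1 and 36.0 in CK mice, which do not overlap, although on the log2 scale the difference was -0.66 ± 0.41 with overlapping mice (limma, adjusted p = 0.419). At 2 and 6 weeks the differences of Tlr4 were -0.01 ± 0.41 and -0.13 ± 0.38 (adjusted p = 0.993 and 0.917). Tlr6, the partner of Tlr2 for diacylated lipoproteins, was lower in mean FPKM in CKp25 mice at every week, at 10.01 ± 4.89 against 20.8 ± 7.03, 13.8 ± 2.71 against 28.8 ± 8.11, 7.22 ± 1.60 against 17.1 ± 11.4 and 10.04 ± 3.59 against 12.5 ± 5.40 in CK mice. Its log2 differences were -0.37, -0.42, -0.36 and -0.26, with standard errors of 0.23 to 0.24 and adjusted p from 0.371 to 1 (limma). On the log2 scale the mice did not overlap at 1 week, all 3 CKp25 mice being lower, and overlapped at 2 weeks. In mean FPKM they overlapped at neither 1 nor 2 weeks. At 2 weeks it was 5.62 to 8.82 in CKp25 mice and 9.17 to 30.2 in CK mice. The share of all genes separated in mean FPKM was not computed.

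Among the endosomal receptors Tlr13 had the largest differences at 2 and 6 weeks, neither of them past the threshold. Tlr13 recognises bacterial ribosomal RNA in the mouse. At 2 weeks its mean FPKM was 19.7, 23.9 and 42.6 in CKp25 mice and 57.7, 68.9 and 37.4 in CK mice, and at 6 weeks 31.2, 23.8, 13.6 and 28.6 in CKp25 mice and 30.7, 54.3 and 34.3 in CK mice. CKp25 mouse 3 at 2 weeks and mouse 1 at 6 weeks lay within the CK range. The log2 differences were -0.97 ± 0.41 at 2 weeks and -0.82 ± 0.38 at 6 weeks (limma, adjusted p = 0.148 and 0.270), against 0.03 ± 0.41 and 0.01 ± 0.41 at 0 and 1 weeks. On the log2 scale the mice of 2 weeks did not overlap. With quantile normalization the value at 2 weeks passed (-1.08, adjusted p = 0.0279).

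Tlr3, Tlr7 and Tlr9 passed at no week. Tlr3, the receptor of long RNA duplexes, had differences from -0.24 to 0.25 over the 4 weeks, with standard errors of 0.25 to 0.27 (limma, adjusted p from 0.667 to 1). For Tlr7, which recognises single-stranded RNA, they ranged from -0.37 to 0.54, with standard errors of 0.37 to 0.40 and adjusted p from 0.532 to 1. The mean FPKM of Tlr7 at 1 week was 28.5, 19.4 and 29.0 in CKp25 mice and 40.5, 39.4 and 32.8 in CK mice. These do not overlap, although on the log2 scale the mice did. Tlr9, which recognises unmethylated CpG DNA, had -0.63 ± 0.43 at 0 weeks, when its mean FPKM was 27.2, 21.2 and 15.9 in CKp25 mice and 31.4, 41.5 and 28.8 in CK mice without overlap. From 1 week on its differences were -0.27, -0.12 and -0.01 and the mice overlapped. An adjusted p above the threshold with standard errors of this size does not show that these levels are equal. In the GENCODE M21 annotation of GRCm38, 7.32% of the exonic bases of Tlr3 overlap Gm45542 on the opposite strand, and no source used here says whether the counting used strand.

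Tlr8, an RNA sensor in humans, was listed in 16 wells in all and was not tested. These were 2, 1, 0 and 5 wells in CKp25 mice and 4, 1, 2 and 1 wells in CK mice at 0, 1, 2 and 6 weeks. The highest mouse mean was 3.06 FPKM, in CKp25 mouse 2 at 6 weeks, and rested on 1 well. In the fit without a filter on genes the difference of Tlr8 at 6 weeks was 0.09 ± 0.04 (limma, adjusted p = 0.410).

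The number of receptors listed per well overlapped between the genotypes. Of the 5 surface receptors a well listed 1.15 ± 0.24, 1.56 ± 0.28, 1.88 ± 0.14 and 1.54 ± 0.18 in CKp25 mice and 1.14 ± 0.11, 1.40 ± 0.24, 1.55 ± 0.34 and 1.24 ± 0.20 in CK mice at 0, 1, 2 and 6 weeks (SD over mice). The genotypes overlapped at each week. Of the 5 endosomal receptors it listed 1.74 ± 0.22, 1.85 ± 0.17, 1.92 ± 0.16 and 1.69 ± 0.31 in CKp25 mice and 1.79 ± 0.05, 1.86 ± 0.10, 1.95 ± 0.11 and 1.69 ± 0.51 in CK mice. Wells that listed none of the 10 receptors made up 0% to 18.2% of the wells of a mouse.

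At 1, 2 and 6 weeks both partners of the lipoprotein receptor were listed together in a larger share of the wells of CKp25 mice. No CK mouse of the same week reached the lowest CKp25 share. This separation was not tested, and how many other gene pairs separate likewise was not computed. Tlr1 and Tlr2 were both listed in 31.9%, 34.4% and 42.6% of the wells of CKp25 mice at 2 weeks and in 8.33%, 12.5% and 9.78% of those of CK mice, without overlap. At 6 weeks the share was 17.3% to 31.6% in CKp25 mice and 3.30% to 12.8% in CK mice, and at 1 week 18.6% to 27.3% and 4.76% to 10.5%, while at 0 weeks it was 1.11% to 16.7% and 4.55% to 9.38%. For Tlr6 with Tlr2 the shares overlapped at each week, at 17.2% ± 6.92 in CKp25 mice and 12.7% ± 4.73 in CK mice at 2 weeks. Within CKp25 mice at 2 weeks, Tlr1 was listed in 43.9% ± 6.06 of the wells that listed Tlr2 and in 19.2% ± 5.42 of the others. In CK mice these shares were 20.5% ± 0.93 and 15.3% ± 3.84. The wells without Tlr2 were few in these CKp25 mice, where 213 of 258 wells listed it. Over all groups Tlr1 was listed more often in the wells with Tlr2 in 21 of 25 mice, and Tlr6 in 16 of 25. The wells with Tlr2 also held more listed genes in 23 of 25 mice. Their mouse medians were 2942 ± 345 against 2531 ± 233 in CKp25 mice at 2 weeks, and the part of this difference in the shares was not tested. A joint share also depends on the share of each gene. At 2 weeks Tlr2 and Tlr1 were listed in 82.7% and 39.8% of CKp25 wells and in 49.7% and 17.9% of CK wells. Whether the joint share went beyond these was not tested.

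**Figure D4:**
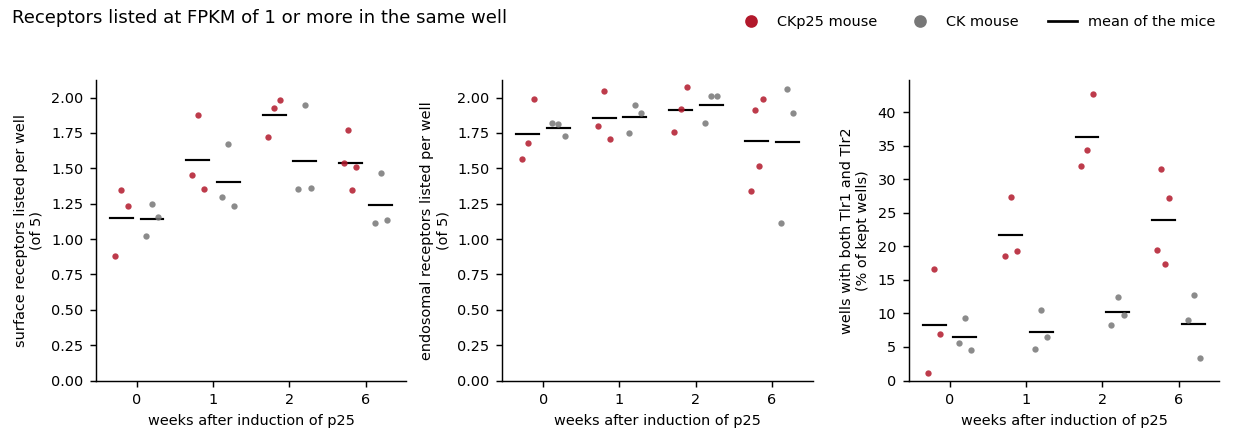
Number of surface receptors (left) and endosomal receptors (middle) listed per kept well, and percent of wells that list both Tlr1 and Tlr2 (right), on y axes from 0, for each mouse at 0, 1, 2 and 6 weeks (x axis), CKp25 in red left of CK in grey with the group mean as a bar. The share with both genes is 31.9% to 42.6% in CKp25 mice and 8.33% to 12.5% in CK mice at 2 weeks, while endosomal receptors per well overlap between the genotypes at each week.

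The genes whose mean of log2(FPKM + 1) over the 25 mice was most like that of a called receptor were ranked by Pearson's r, as a description. For Tlr2 they were Tspo (r = 0.927), a protein of the outer mitochondrial membrane, Capg (0.926), an actin-capping protein, and Myo1e (0.922), a myosin. Those most like Tlr1 were Ttyh2 (0.894), Ccl3 (0.890), a chemokine, and Cxcl16 (0.879), also a chemokine. Nearest to Tlr5 were Zfp710 (0.846), Numb (0.824) and Morc2a (0.813). Between receptors r was 0.71 for Tlr2 with Tlr1, 0.65 for Tlr5 with Tlr13, 0.54 for Tlr5 with Tlr6 and -0.50 for Tlr5 with Tlr2. All of these values share the 8 groups of mice and the number of genes per well.

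Genes that act with the receptors were taken from 7 lists of 86 genes, of which 69 were tested. The lists were partly chosen with results of these data known, and their counts describe them only. The filter on genes could also be passed through CKp25 mice alone, by listed genes and by all genes alike. Counts of genes that rose are therefore not independent of it. At 0 weeks 0 of the 69 were called. At 1 week 4 of the 69 rose and 0 fell (5.8%), at 2 weeks 10 rose and 0 fell (14.5%), and at 6 weeks 8 rose and 1 fell (13%). Over all tested genes the shares in either direction were 4.29%, 8.37% and 5.74%. The medians of the 69 differences were 0.06, 0.13 and 0.00 at 1, 2 and 6 weeks, beside 0.06, -0.00 and -0.04 over all genes.

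Of the surface partners, 0 of 6 tested were called at any week, with 0, 1 and 2 at an unadjusted p under 0.05 at 1, 2 and 6 weeks, beside 1662, 1912 and 1487 of all 9435 genes. Mertk, a receptor kinase that restrains Toll-like receptor signalling, had -1.30 ± 0.50 at 2 weeks (limma, adjusted p = 0.105), with 82.0 FPKM in CKp25 mice and 161 in CK mice. Ly86, which pairs with the surface receptor Cd180, had 0.86 ± 0.48 (adjusted p = 0.318). Of 10 genes for chaperones and processing, Lrrc59, needed to move endosomal receptors out of the endoplasmic reticulum, rose at 1 week by 0.68 ± 0.18 (limma, adjusted p = 0.0148). It was listed in 21.4% of CKp25 and 8.27% of CK wells, and the call was lost in 2 other settings and without any of 4 mice of that week. Ctsb, a protease among those that cleave these receptors in endosomes, rose at 2 weeks by 1.66 ± 0.47 and at 6 weeks by 1.61 ± 0.44 (limma, adjusted p = 0.0181 and 0.0167). Its mean FPKM was 1414 ± 152 in CKp25 mice and 461 ± 130 in CK mice at 2 weeks, and the call was lost without any of 4 of the 6 mice of that week, and at 6 weeks without CKp25 mouse 1 or 4 or CK mouse 2 or 3. Of 15 other settings the call held in 13 at 2 weeks and in 10 at 6 weeks. Cnpy3, a chaperone that folds several of these receptors, had 33.6 ± 5.95 FPKM in CKp25 mice and 52.9 ± 11.3 in CK mice at 6 weeks, a difference of -0.98 ± 0.40 that did not pass (limma, adjusted p = 0.173).

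Of the adaptors, 0 of 5 tested were called, with 0, 1 and 1 at an unadjusted p under 0.05 at 1, 2 and 6 weeks, beside the same numbers of all genes. Ticam2, which links Tlr4 to the Ticam1 branch, had 0.64 ± 0.25 at 2 weeks (limma, adjusted p = 0.119), and Tirap, which bridges Tlr2 and Tlr4 to Myd88, had -0.55 ± 0.25 at 6 weeks (adjusted p = 0.250). Myd88 had -0.41 ± 0.33 at 1 week (adjusted p = 0.565). Of 17 kinases and ubiquitin ligases, Map3k8, a kinase that leads from these receptors to ERK, rose by 0.98 ± 0.18 at 2 weeks and 0.62 ± 0.17 at 6 weeks (limma, adjusted p = 0.000190 and 0.0172). It was listed in 27.9% of CKp25 and 10.6% of CK wells at 2 weeks and in 21.9% and 12% at 6 weeks, where the call was lost without CKp25 mouse 1 or CK mouse 1 or 3 and in 3 of 15 other settings. At 2 weeks it was lost with the log of the mean FPKM (adjusted p = 0.152). No other gene of this list was called at any week.

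Of 15 negative regulators tested, Atf3, which represses cytokine genes under these receptors, rose at 2 weeks by 1.46 ± 0.43 (limma, adjusted p = 0.0252), with 83.6 ± 29.1 FPKM in CKp25 mice and 36.7 ± 12 in CK mice. That call was lost in 4 other settings and without any of 4 of the 6 mice of that week. Inpp5d, a lipid phosphatase, had -1.24 ± 0.45 (adjusted p = 0.0817), and Tnfaip3, a deubiquitinase induced by NF-kappaB, had 0.60 ± 0.26 (adjusted p = 0.163). Of 8 transcription factors only Irf7, which drives type I interferon genes under Tlr7 and Tlr9, was called. It rose by 4.37 ± 0.43 at 2 weeks and 2.61 ± 0.40 at 6 weeks (limma, adjusted p = 6.37e-08 and 8.26e-05) and kept both calls in each setting and each fit with 1 mouse left out. Irf7 was listed in 67.8% of CKp25 and 1.75% of CK wells at 2 weeks, and in 40.9% and 1.88% at 6 weeks. With shares this low in CK mice, Irf7 may have passed the filter on genes through the CKp25 mice alone. Nfkb1 and Rela, subunits of NF-kappaB, had -0.52 ± 0.33 and -0.59 ± 0.34 at 2 weeks (adjusted p = 0.410 and 0.340).

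Of 17 target genes listed, 8 were tested, and the others missed the filter on genes. Of the 8, 3 rose at 1 week, 6 rose at 2 weeks, and 5 rose and 1 fell at 6 weeks. A gene could pass that filter through the CKp25 mice alone, so these counts are not independent of it. Cxcl10, rarely listed in CK wells at 2 weeks, may have passed in this way. Ccl3 and Ccl4, chemokines, and Tnf, a cytokine, rose at 1 week by 2.91 ± 0.53, 3.19 ± 0.69 and 1.77 ± 0.28 (limma, adjusted p = 0.000186, 0.00317 and 1.91e-05), a week at which no receptor was called. At 2 weeks the differences were 4.49 ± 0.53 for Ccl3, 4.99 ± 0.69 for Ccl4 and 1.35 ± 0.28 for Tnf (adjusted p = 2.45e-08, 2.87e-06 and 0.000852). Cxcl10, a chemokine induced by interferon, rose by 1.54 ± 0.22 at 2 weeks (limma, adjusted p = 1.24e-05) and was listed in 19.2% of CKp25 and 1.06% of CK wells. At 6 weeks Cxcl10 rose by 0.72 ± 0.20 (adjusted p = 0.0287), a call that held in 9 of 13 other settings and in 19 of 25 fits with 1 mouse left out. Il1b, the cytokine interleukin 1 beta, rose by 0.61 ± 0.18 at 2 weeks and by 1.38 ± 0.17 at 6 weeks (limma, adjusted p = 0.0255 and 9.85e-08), and the value at 2 weeks was lost in 6 other settings and without CKp25 mouse 2 or CK mouse 1 or 3 of that week. Nfkbiz, an inducible co-regulator of NF-kappaB, rose by 1.13 ± 0.34 at 2 weeks (limma, adjusted p = 0.0304), a call lost when any of the 6 mice of that week was left out and in 6 of 15 other settings. Ccl5, also a chemokine, rose at 6 weeks by 3.22 ± 0.65 (adjusted p = 0.00361). Il6, the cytokine interleukin 6, fell at 6 weeks by 0.52 on the log2 scale (limma, adjusted p = 0.00784), with 3.01 ± 2.89 FPKM in CKp25 mice and 8.48 ± 1.16 in CK mice, and the call was lost without CK mouse 2 of that week. When the log was taken of the mean FPKM, Tnf and Ccl4 passed at neither 1 nor 2 weeks and Ccl3 did not at 1 week. Il6 and Ccl4 did not pass at 6 weeks in that setting, and Ccl4 passed at neither 1 nor 6 weeks with no filter on wells. These genes answer to many other inputs, and their link to a receptor was not tested.

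**Figure D5:**
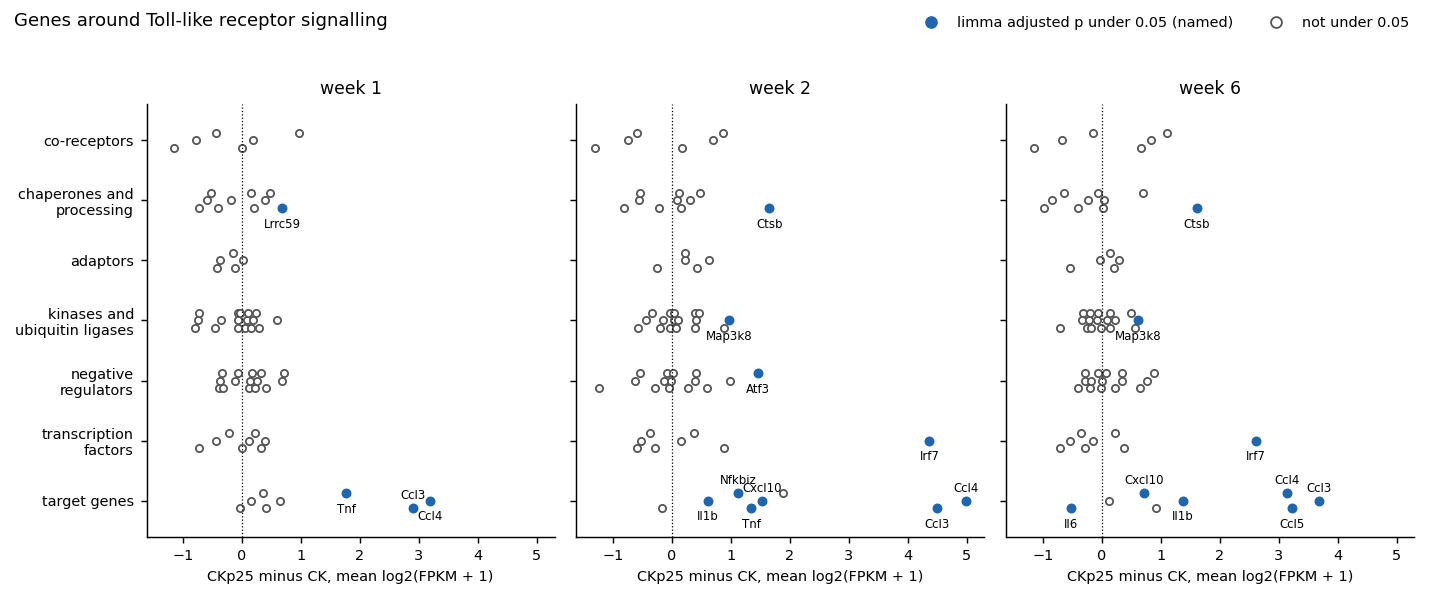
Difference between CKp25 and CK mice in the mean of log2(FPKM + 1) (x axis) for the 69 tested genes of 7 lists (y axis) at 1, 2 and 6 weeks (panels), 1 point per gene. Filled points are named and passed the threshold, 4 at 1 week, 10 at 2 weeks and 9 at 6 weeks, with Il6 the 1 that was lower in CKp25 mice.

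The mouse receptors Tlr11 and Tlr12, which act together on a protein of protozoa, were read beside the 10. Tlr12 was listed in 16.6% of kept wells and its differences were -0.30, -0.21, -0.06 and 0.06 at 0, 1, 2 and 6 weeks, with standard errors of 0.22 to 0.23 (limma, adjusted p from 0.699 to 1). Tlr11 was listed in 8 wells and did not pass the filter on genes.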

How the data were processed

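Single-cell RNA of sorted hippocampal microglia was measured in 2208 wells of 25 mice. The authors deposited 1 table of FPKM per gene and well, made with Cufflinks 2.2 against mm9, per the submitters' processing notes. The name of the deposited table points to TopHat as the aligner, and the annotation and any filter were not stated in the sources used. The table holds no counts, so depth is unknown and no interval or detection limit can be given, and 89.969% of values are 0. The mouse was the replicate. A well was kept when 1000 or more of its genes reached FPKM of 1, and each mouse was given the mean over its wells of log2(FPKM + 1), with a pseudocount of 1. Genes listed in at least 10% of wells in at least 3 mice were tested with limma 3.58.1 (trend and robust) in R 4.3.3 on 8 group means, 2-sided, with Benjamini-Hochberg adjustment over all tested genes and a threshold of 0.05. In simulated data for CKp25 minus CK at 1 week over 9435 genes, 62% and 64% of genes with a log2 difference of 1 and -1 were called, 98% and 94% at 2 and -2, and 12 unchanged genes. Other tools were Python 3.11.15, numpy 2.4.6, pandas 2.3.3 and matplotlib 3.10.9. The receptors and lists were chosen with earlier results of these data known. All 10 receptors were named, and from each pathway list any gene past the threshold and up to 4 by smallest p, and the 3 genes most correlated with each called receptor. Tried alternatives changed the gene and well filters, the pseudocount, the normalization, the summary of wells and the mice or wells included. Some marker genes are not reported here, and the marker sums were taken without them.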

Additional observations from a re-analysis of the deposited data

Results flagged for a closer look

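Tlr5 in CKp25 mice at 6 weeks had 1 mouse far from the others, mouse 3, with a mean of 0.480 FPKM against 0, 0.0286 and 0.00330 in the other three. The value of mouse 3 rests on 2 of 52 wells that listed Tlr5. It was 1 finding among 30 checks, of 10 receptors on 3 measures, and chance alone gives about 1 in 20. All these checks used the same 4 mice, since no other group had 4, and are not independent.

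The difference between genotypes changed between times for 2 receptors. For Tlr2, CKp25 minus CK was larger at 2 weeks than at 0 weeks by 2.65 ± 0.65 (limma interaction, adjusted p = 0.0129). For Tlr5 it was lower at 2 weeks than at 0 weeks, by -0.97 ± 0.23 (adjusted p = 0.0116), and lower than at 1 week, by -0.88 ± 0.23 (adjusted p = 0.0349).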

How the results depend on the processing

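Tlr2 and Tlr5 at 2 weeks kept their calls in every setting in which they were tested and with any of 25 mice left out. With quantile normalization 2 receptors were lower at 2 weeks, Tlr13 being added (adjusted p = 0.0279). The number higher at 2 weeks was 1 with the log of the mean FPKM, and 1 to 2 over fits with 1 mouse left out. With genes in at least 25% of wells Tlr5 was not tested, so 0 receptors were lower at 2 and at 6 weeks. With only the mice of the week Tlr5 was not tested at 6 weeks either, so 0 were lower. At 1 week the fits with 1 mouse left out gave 0 to 1 receptors higher. At 6 weeks 2 receptors were higher with quantile normalization, with wells of at least 2000 genes and without wells of other markers, and 0 with no filter on wells, and fits with 1 mouse left out gave 1 to 2. At 6 weeks 0 were lower with no filter on genes, pseudocounts of 0.1 or 10, shares of wells, either filter on wells, and without first wells, wells of other markers or gene-rich wells (a setting chosen after seeing the data), and 0 to 1 with 1 mouse left out. The causes were not tested. Of 35 called differences 11 kept the call throughout, and 13 of 31 uncalled receptor differences had another sign in some setting. The log of the mean FPKM moved the median of all genes to -0.17, -0.35 and -0.18 at 1, 2 and 6 weeks.

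Mouse numbers are shared between genotypes, and deviations of same-numbered mice correlated from -0.119 to 0.348. The correlation was positive for every pair at 0, 1 and 2 weeks, and 0.116 to 0.220 at 0 weeks. Whether the numbers mark mice handled together was not tested, and the main fit did not pair them. With the replicate block 0 receptors were lower at 6 weeks (Tlr5 -0.48, adjusted p = 0.085), and at 2 weeks Tlr2 had 2.79, Tlr1 1.06 and Tlr5 -1.04, each called. The block also ended the calls of Ctsb and Cxcl10 at 6 weeks. No source says how mice were bred or housed, and FPKM without counts leaves the depth behind low receptors such as Tlr5 and Tlr8 unknown.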
